A study of Glycine max with 4 samples.

Results

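The regions described here are the places on chromosomes 3, 10, 19 and 20 of soybean (Glycine max) where chromatin bound by GLYMA.08G357600 was enriched in developing embryos. This protein is named ABI3 in the naming of the deposited lists. The regions are all rows with the names Chr03, Chr10, Chr19 and Chr20 in the peak list of biological replicate 2. They number 257 of the 1436 regions that carry a Chr name, and the whole list holds 2460 rows. The chromosomes were chosen because they carry major seed storage protein genes, in the duplicated pairs 3 with 19 and 10 with 20. The rule used no measured value, but earlier results of these data were known when it was set. Rows with Gm names and rows on scaffolds were left out.

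All material was 1 group of cultivar Williams 82 embryos at mid-maturation, without a transgene, mutant or treatment in the labels. Fixed chromatin was precipitated with an antibody against a peptide of GLYMA.08G357600 and sequenced (ChIP-seq), as 2 biological replicates with 2 technical replicates each. Each biological replicate has 1 peak list here. The labels do not say whether a sample pooled embryos of several plants, and no sample with another antibody or without the factor was analysed here. Differences between chromosomes are therefore given as descriptions, with no test over replicates.

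ABI3 is a transcription factor with a B3 DNA-binding domain, best known from Arabidopsis and, as VP1, from maize. It acts during seed maturation, when storage proteins and oil are laid down and the embryo acquires desiccation tolerance, and it is known to act on promoters of storage protein genes through the RY element. In soybean the main storage proteins are glycinin, an 11S globulin, and beta-conglycinin, a 7S globulin. Soybean descends from a polyploid ancestor, so long stretches of its chromosomes exist as duplicated pairs. In the gene table of the assembly Glycine_max version 4.0, 10 genes carry a glycinin or beta-conglycinin symbol and 9 of them lie on these 4 chromosomes. GY1 and GY2 lie on chromosome 3 with 0 protein-coding genes between them, and GY7 and GY3 lie likewise side by side on chromosome 19. GY4 and CG-1 lie on chromosome 10. CG-BETA-1, CG-BETA-2 and CG-3 lie on chromosome 20, and GY5 lies on chromosome 13. No source used here names the build of the peak positions, so no region was placed on or beside any of these genes, and no sequence of a region is shown.

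The 4 strongest regions with Chr names lay on chromosomes 3, 10 and 20, and they were the same 4 in both replicates. Strength is ranked by the −log10 q-value at the summit, and fold enrichment is the authors' ratio of ChIP signal to local background there. The fragment counts at summits were recovered from the authors' values, and their exact Poisson intervals cover counting error only. The strongest region, 42601298 to 42601850 on chromosome 10, reached a fold of 30.0 in replicate 2, where 144 fragments covered its summit (95% interval 121 to 170). In replicate 1 its fold was 19.6, with 91 fragments (73.3 to 112). It ranked 1 among regions with Chr names in both lists, and all ranks given here count only such regions. A region 782 bp wide at 47482820 to 47483601 of chromosome 10 ranked 2 in replicate 2 and 4 in replicate 1, with folds of 26.4 and 13.7. On chromosome 20, the region at 43441409 to 43442021 ranked 3 in both, with folds of 24.7 and 16.8. On chromosome 3, the region at 37825560 to 37826228 ranked 4 in replicate 2 and 2 in replicate 1, with folds of 24.2 and 17.3. The highest fold on the other 16 chromosomes was 22.3 in replicate 2 and 14.5 in replicate 1, both on chromosome 9.

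Their share of the strongest regions fell as more of the ranking was counted. The 257 regions were 17.9% of all regions with Chr names (exact binomial 95% interval 15.9 to 19.98%). They made up 5 of the 10 strongest of replicate 2 (18.7 to 81.3%), 8 of the first 21 with ties (38.1%, 18.1 to 61.6%), 14 of the 50 strongest (16.2 to 42.5%) and 21 of the 100 strongest (13.5 to 30.3%). The intervals for the first 10, 21, 50 and 100 all overlapped the 15.9 to 19.98% of the whole. Those for the first 4 (4 of 4, 39.8 to 100%) and the first 5 (4 of 5, 28.4 to 99.5%) lay above it. All these intervals count regions as if independent and the cut-offs are nested, so chance was not tested. In replicate 1, regions on these chromosomes were 17.6% of those with Chr names. The corresponding counts there were 4 of 4, 4 of 5 and 6 of 10. With ties they were 8 of 21, 16 of 51 and 24 of 105. Chromosome 10 held 3 of the 10 strongest of replicate 2, chromosomes 3 and 20 held 1 each, and chromosome 19 held 0. These cut-offs were chosen after the values were seen.

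The chromosomes were not rich in regions by number. Replicate 2 had 68 regions on chromosome 3, 68 on chromosome 10, 70 on chromosome 19 and 51 on chromosome 20, and replicate 1 had 28, 35, 28 and 23. Per Mb of the span up to the last called position, which stood in for chromosome length, replicate 2 had 1.49, 1.34, 1.39 and 1.09 regions. The other 16 chromosomes ranged from 0.955 on chromosome 1 to 2.39 on chromosome 13. Taken as a whole, the 4 chromosomes held 20.5% of the called span, with 1.33 regions per Mb in replicate 2 against 1.58 on the other 16 and 0.59 against 0.714 in replicate 1. By pair, 3 with 19 held 138 regions of replicate 2 and 10 with 20 held 119. In replicate 1 the pairs held 56 and 58. Within the pair 10 with 20, chromosome 20 had fewer regions per Mb than chromosome 10 in both lists (0.493 against 0.688 in replicate 1). Its density in replicate 2 ranked 19 of 20.

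**Figure D1:**
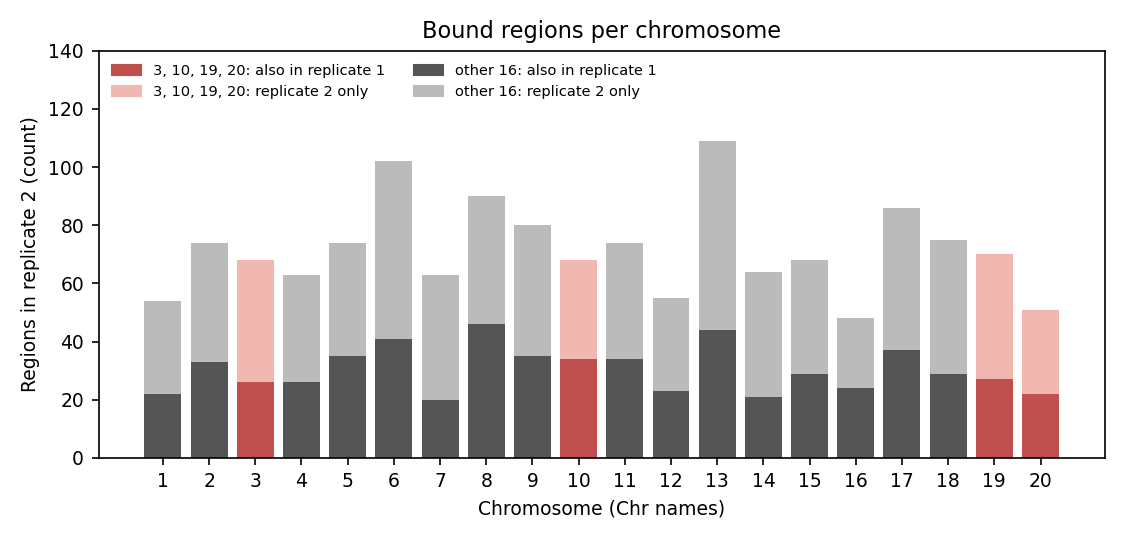
Bars give the number of regions of replicate 2 on each of the 20 chromosomes, with the part that overlaps a region of replicate 1 in the darker shade at the base and the 4 chromosomes in red. The 4 red bars stand at 51 to 70 regions, within the 48 to 109 of the other chromosomes.

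Median width and strength lay within the range of the other chromosomes. Median width was 312 bp on the 4 chromosomes and 313 bp on the other 16, and the widths ran from 220 bp to 787 bp. By chromosome the median width was 324 bp on 3, 313 bp on 10, 314 bp on 19 and 304 bp on 20, inside the 291 to 338 bp of the others. Median fold was 6.41 on chromosomes 3 and 10, 6.20 on 19 and 5.99 on 20, where the others ranged from 5.37 to 7.03. The median summit held 30 fragments on the 4 chromosomes and 29 on the other 16. The weakest of the 257 summits held 16 fragments. Wider regions tended to be stronger: across the 257 regions the Spearman rho between width and fold was 0.71, and it was 0.71 across the other 1179, where both measures come from the same fragments. An exception was the widest region, 787 bp at 49418798 to 49419584 of chromosome 10, with a fold of 5.58, 26 summit fragments and no overlap in replicate 1. The widest regions of chromosomes 19 and 20 were also the strongest there, and that of chromosome 3, 729 bp at 23958867 to 23959595, had folds of 10.5 and 6.18 in replicates 2 and 1.

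Each chromosome had its own set of leading regions. The 5 strongest of each chromosome, 20 in all, were called in both replicates, with summits at most 67 bp apart. Strong regions were mostly shared elsewhere too, with 91.0% of the strongest of the 4 classes described below on the other 16 chromosomes. In replicate 2 the folds of the 20 spanned 11.3 to 30.0, and in replicate 1 they spanned 4.05 to 19.6. Chromosome 10 led rank for rank in replicate 2, where the folds of its 5 strongest lay between 17.4 and 30.0, and between 12.6 and 19.6 in the other list. The other members of this set on chromosome 10 were 3259073 to 3259563 (20.5 and 12.6), 39003128 to 39003601 (18.4 and 13.4) and 40797670 to 40798217 (17.4 and 12.8), with the fold in replicate 2 given before that in replicate 1. On chromosome 20 the 5 strongest ran from 14.7 to 24.7 in replicate 2, with 45538237 to 45538730 in rank 2 there (18.8, and 10.4 in replicate 1). The ratio of fold between the replicates was highest among the 20 for 46615325 to 46615782 (2.92), which had folds of 15.7 and 5.37. It ranked 30 in replicate 2 and 264 in replicate 1 among regions with Chr names.

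Below its strongest region, chromosome 3 dropped to a fold of 13.9 for the next, at 37820217 to 37820662, which had 66 fragments in replicate 2 and 61 in replicate 1. The summits of these 2 regions lay 5444 bp apart, and they ranked 2 and 16 in replicate 1. The rest of its leading set had folds of 12.7 at 36005769 to 36006322, 12.6 at 40015752 to 40016311 and 11.3 at 6904532 to 6905057. In replicate 1 these had folds of 10.5, 5.63 and 10.2.

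The strongest region of chromosome 19 was weaker than that of each of the other 3. This region region, 47905819 to 47906531, held 80 fragments in replicate 2 (63.4 to 99.6) and 36 in replicate 1 (25.2 to 49.8), with folds of 16.7 and 7.61. It ranked 22 in replicate 2 and 151 in replicate 1. The next were 40810401 to 40810989, with folds of 14.7 and 10.0, and 42570129 to 42570704, with 12.5 and 10.4. The latter was the strongest region of chromosome 19 in replicate 1. The region at 6471372 to 6471772 had folds of 11.6 and 6.61. The region at 42277982 to 42278446 had folds of 11.4 and 4.05 in replicates 2 and 1, from 54 and 18 fragments.

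**Figure D2:**
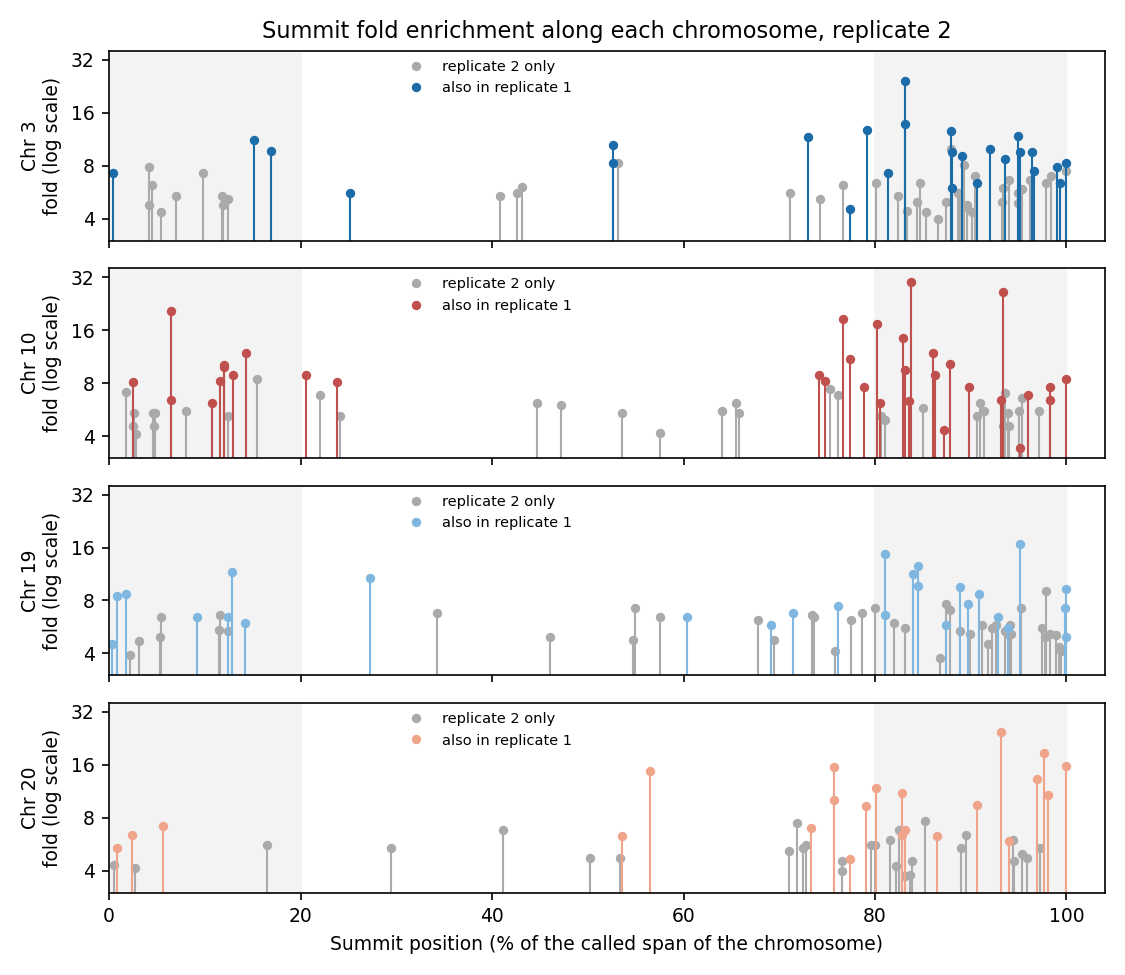
Each stem is 1 region of replicate 2, at its position in percent of the called span of its chromosome and with its fold enrichment on a log axis; coloured stems overlap a region of replicate 1, grey stems do not, and shading marks the outer 20% at each end. Stems crowd at the high-numbered end of all 4 chromosomes, and the tallest, at 30.0, stands on chromosome 10.

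The regions were concentrated at the high-numbered end of these chromosomes. Of the 257, 138 lay in the last 20% of the called span (53.7%, 95% interval 47.4 to 59.9%) and 51 in the first 20% (19.8%, 15.2 to 25.2%). The span ran from the start of the chromosome to the last called position, on the other 16 chromosomes too. A region thus always marked its high-numbered end but not its low-numbered end, so the 2 ends were not measured alike. Over all regions with Chr names, 36.3% lay in the last 20%. On the other 16 chromosomes the shares were 32.5% at the high-numbered and 36.3% at the low-numbered end. Chromosome 3 had 43 of 68 regions at the high-numbered end (63.2%), chromosome 19 had 38 of 70 (54.3%) and chromosome 20 had 26 of 51 (51.0%). These were the highest shares of the 20 chromosomes in replicate 2. Chromosome 10, with 31 of 68 (45.6%), lay within the range of the others, 13.7% on chromosome 6 to 48.1% on chromosome 1. Replicate 1 showed the same imbalance for the 4 taken as a whole, with 63 of its 114 regions at the high-numbered end (55.3%) and 23 at the low-numbered end. In that list chromosomes 3 (60.7%) and 19 (57.1%) again had the highest shares, but chromosome 9 (54.1%) stood above chromosome 20 (52.2%). The intervals count regions as if independent, and where genes or alignable sequence lie on these chromosomes was not analysed here.

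Both ends together held 189 of the 257 regions (73.5%, 67.7 to 78.8%), near the 69.6% of all regions with Chr names. Chromosome 3 had 80.9% of its regions in the outer parts and chromosome 20 had 62.7%. Among 10 bins of equal length along the span, bin 4 had 1 region, bins 3, 5 and 7 held 7 each, bin 6 held 12 and bin 8 held 34. On chromosome 20, bin 8 held 13 of 51 regions, where bin 10 held 12, and its share outside the outer parts, 37.3%, ranked 2 of 20. The longest stretch without a summit was 10.5 Mb on chromosome 10, from 12246629 to 22720861. It was 8.19 Mb on chromosome 3, 6.76 Mb on chromosome 20 and 6.59 Mb on chromosome 19, against 4.14 to 17.3 Mb on the others. A strong region could also stand alone away from the ends. The region at 26329654 to 26330046 of chromosome 20 had folds of 14.7 and 8.92 in replicates 2 and 1, and its nearest neighbour was 1362181 bp away.

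**Figure D3:**
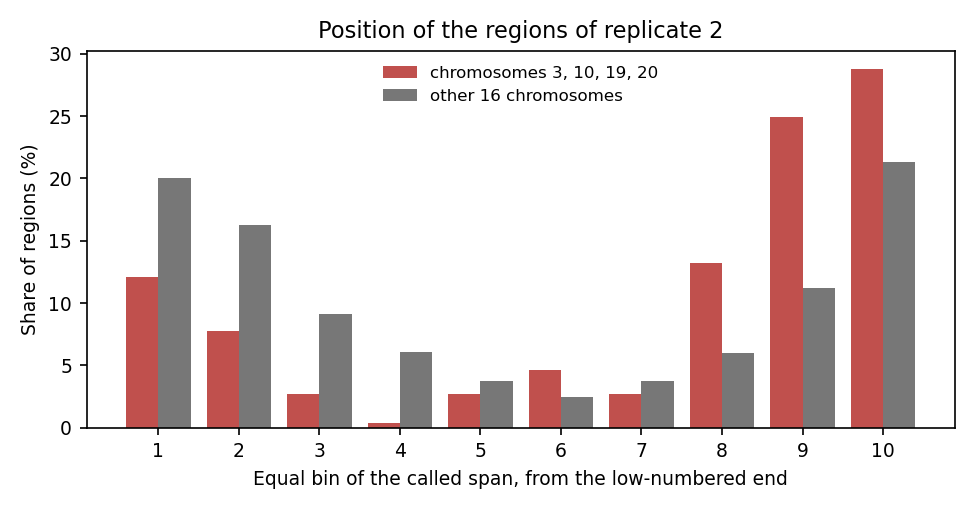
Bars give the share of regions of replicate 2 in each of 10 equal bins of the called span, for the 4 chromosomes in red and the other 16 in grey. The red bars reach 24.9% and 28.8% in bins 9 and 10, where the grey bars reach 11.2% and 21.3%. The red bars stand below the grey bars in bins 1 to 5 and in bin 7.

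The most crowded 1 Mb window on the 4 chromosomes was 40 to 41 Mb of chromosome 3, with 10 regions, as many as the fullest window of the other 16, on chromosome 13. Of the 10, 4 were called in replicate 1, near the 42.3% of all regions with Chr names. The 4 were 40015752 to 40016311, named above, and the regions starting at 40045802, 40068967 and 40534384. The last 3 had folds of 5.99, 9.51 and 9.10 in replicate 2. The fullest windows of the other chromosomes were 47 to 48 Mb on chromosome 10 with 6 regions, 47 to 48 Mb on chromosome 19 with 7 and 38 to 39 Mb on chromosome 20 with 7. Those of chromosomes 10 and 19 held 2 regions that were called in replicate 1 and that of chromosome 20 held 3. Each of the windows on chromosomes 10 and 19 contained 1 region that stood far above the rest, at a fold of 26.4 against a window median of 5.89 and at 16.7 against 5.58.

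The frequency of close neighbours depended on the list. In replicate 2, another summit lay within 10 kb for 28 of the 257 regions (10.9%, 7.36 to 15.4%), against 10.2% of all regions with Chr names. In replicate 1 it did for 20 of 114 (17.5%, 11.1 to 25.8%), against 46 of 534 on the other 16 chromosomes (8.61%, 6.38 to 11.3%) and 10.2% of all regions with Chr names. The 28 formed 14 pairs and no larger group. Of the pairs, 11 lay wholly in the outer parts of their chromosome, where 73.5% of the 257 regions lay. In 10 pairs both regions were called in replicate 1, in 3 only the stronger one was, and in 1 neither was. Regions in close pairs were strong on these chromosomes: the median fold was 9.51 and the median width 442 bp, against 6.20 and 308 bp for the 229 without a close neighbour. On the other 16 chromosomes the median fold was 6.20 for the 118 regions with and for the 1061 without a close neighbour. Of the 28 paired regions, 23 were called in both replicates (82.1%, 63.1 to 93.9%), against 59 of 118 on the other chromosomes (40.7 to 59.3%). This difference was noticed in the data and was not tested, and paired regions are not independent. Among the 28, 17 belonged to the strongest of the 4 classes described below, against 29 of the 118.

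The closest pair on each of chromosomes 10, 19 and 20 joined a leading region to a weaker one, and both of each pair were called in both replicates. On chromosome 10, summits 933 bp apart belonged to the region at 3259073 to 3259563, with 98 fragments, and to that at 3260015 to 3260416, with 30. Their folds were 20.5 and 6.41 in replicate 2 and 12.6 and 5.11 in replicate 1. On chromosome 20, the regions at 35315284 to 35315720 and 35316614 to 35317060, 1372 bp apart, had folds of 15.5 and 10.1 in replicate 2. In replicate 1 these were 10.7 and 4.52. On chromosome 19, the regions at 40810401 to 40810989 and 40812544 to 40813005, 2031 bp apart, had folds of 14.7 and 6.62, and 10.0 and 4.06 in replicate 1. In these 3 pairs the stronger region had the lower coordinate, as it did in 8 of all 14 pairs. The closest pair of chromosome 3, with summits 4192 bp apart, was formed by the widest region there and one at 23963126 to 23963524 with a fold of 8.27.

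Of the 257 regions, 109 overlapped a region of replicate 1 by 1 bp or more (42.4%, 36.3 to 48.7%), against 42.3% of all regions with Chr names. This share depends on the unequal length of the lists: with the list of replicate 2 cut to the length of the other, 79 of 106 were shared (74.5%, 65.1 to 82.5%), and 75.2% on the other 16 chromosomes. Each of the 109 met a different region of replicate 1. The share was 38.2% on chromosome 3 (26.7 to 50.8%), 34 of 68 on chromosome 10 (37.6 to 62.4%), 38.6% on chromosome 19 (27.2 to 51.0%) and 43.1% on chromosome 20 (29.3 to 57.8%). It was 38.4% for the pair 3 with 19 and 47.1% for the pair 10 with 20, with intervals that overlapped widely (30.3 to 47.1% and 37.8 to 56.4%). From the side of replicate 1, 109 of 114 regions were met (95.6%, 90.1 to 98.6%), and 93.4% on the other 16 chromosomes. The 5 that were missed lay at 14542971 and 35160989 on chromosome 3, 4542823 on chromosome 10, 48559738 on chromosome 19 and 28468695 on chromosome 20. They were weak, with 18 to 22 fragments, except the second of chromosome 3. That region held 192 fragments on a local background of 102, for a fold of 1.88.

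Whether a region was called in replicate 1 went with its strength. All regions with Chr names of replicate 2 were sorted by −log10 q into 4 classes of about equal size. The strongest class contained 66 of the 257, of which 62 overlapped a region of replicate 1 (93.9%, 85.2 to 98.3%). The share was 33 of 68 in the next class, 9 of 63 in the next and 5 of 60 in the weakest (8.33%, 2.76 to 18.4%). The other 16 chromosomes had 91.0%, 47.4%, 23.4% and 10.2% in the same order, each within the interval of the 4. On chromosome 20 all 12 regions of the strongest class were called in replicate 1, and 0 of 14 in the weakest (exact upper 95% limit 23.2%). The 109 shared regions had a median of 41 summit fragments in replicate 2, with a median width of 406 bp, and the 148 others had 26 fragments and 278.5 bp.

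**Figure D4:**
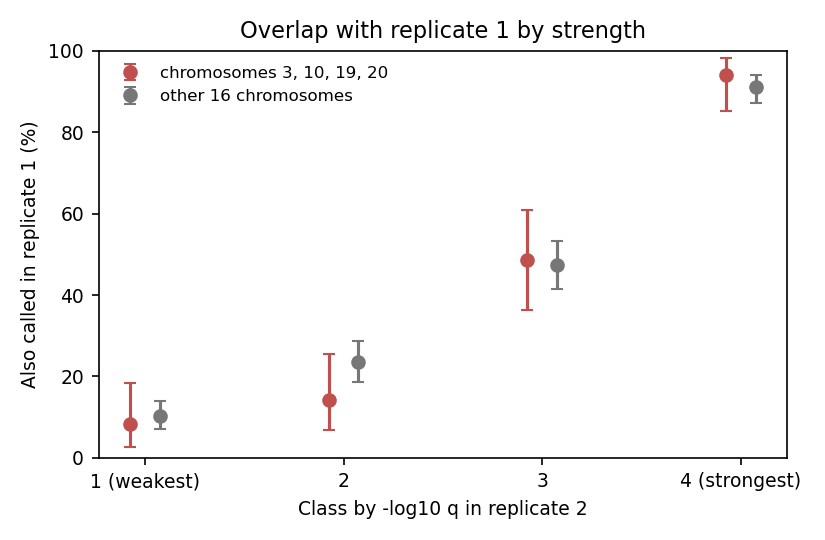
Points give the percentage of regions of replicate 2 that overlap a region of replicate 1, in 4 classes by −log10 q, with exact 95% intervals, for the 4 chromosomes in red and the other 16 in grey. The share rises from 8.33% to 93.9% on the 4 chromosomes, and the red and grey intervals overlap in every class.

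Of the 148 regions absent from replicate 1, 4 belonged to the strongest class. The strongest absent regions of the chromosomes were 40009786 to 40010215 on chromosome 3 with 47 fragments and a fold of 9.92, and 49315900 to 49316253 on chromosome 19 with 43 fragments and 9.10. On chromosome 10 it was 7856614 to 7856920 with 41 fragments and 8.49, and on chromosome 20 it was 39709617 to 39709986 with 36 fragments and 7.65. The first 3 belonged to the strongest class, at ranks 189, 255 and 309 of 1436, and the one on chromosome 20, at rank 404, to the next. The one on chromosome 3 was paired with the leading region at 40015752 to 40016311, 5999 bp away. Replicate 1 may list such places under a Gm name, which was not examined here. A region missing from a list is thus not shown to be unbound. A single region, at 43740268 to 43740487 of chromosome 19, stood on a local background over 2 times the lowest of the list (8.00 against 3.84). It had 33 fragments for a fold of 3.78, and it was absent from replicate 1. Smaller rises of the background were not singled out.

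Summits of shared regions lay close together in both replicates, and their order by fold matched in part. Only regions that already overlapped were compared, so the summit distances were bounded by the region widths. The median distance between the summits of the 109 was 32 bp, and for 101 it was at most 100 bp. Across them, the Spearman rho of fold enrichment between the replicates was 0.66 and Pearson's r on the log2 scale was 0.77, as a description across regions that share their library. By chromosome rho was 0.70 on 3 (26 regions), 0.85 on 10 (34), 0.52 on 19 (27) and 0.53 on 20 (22), where the others ranged from 0.25 to 0.80. Fold was higher in replicate 2 for 95 of the 109, with a median ratio of 1.34 and a range from 0.728 to 2.92. The median ratio was 1.28 for the pair 3 with 19, 1.37 for the pair 10 with 20 and 1.29 for the other 16 chromosomes. Total reads per library are not in the lists, so this ratio says nothing of binding strength in one embryo sample against the other.

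**Figure D5:**
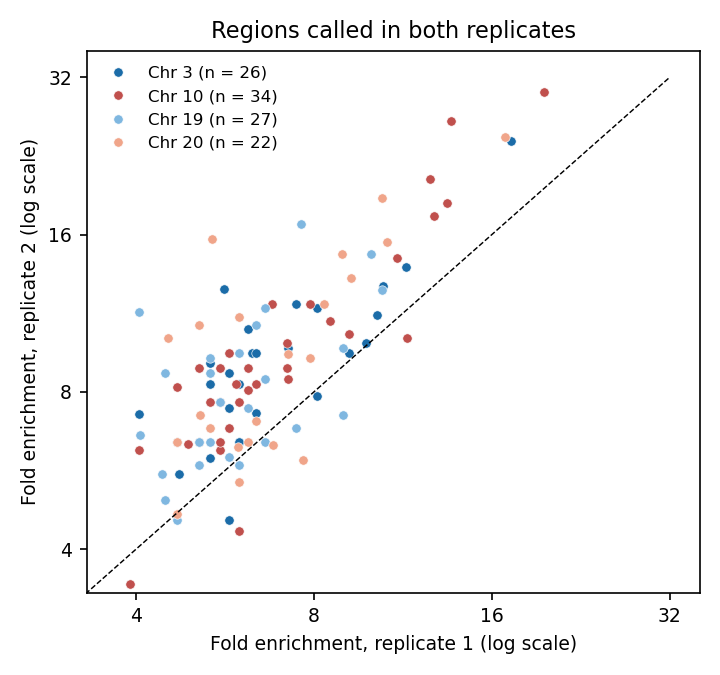
Each point is 1 of the 109 regions called in both replicates, coloured by chromosome, with fold enrichment in replicate 1 and replicate 2 on log axes and a dashed line of equal fold. Of the points, 95 lie above the line, and the 4 at the top belong to chromosomes 10, 20 and 3.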

How the data were processed

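The deposited peak lists of 2 ChIP samples, 1 for each biological replicate, were used, and the 2 other samples had no list of their own. Per the submitters' processing notes, Bowtie 0.12.7 and MACS2 were used. Their settings, the threshold, the build and whether technical replicates were joined: not given in the sources used here. Rows of the lists are in narrowPeak layout, with no header. The deposited fold values are ratios at the summit, and the authors' p-values and q-values are −log10 values at the summit. The score column, per the file values deposited, repeats the −log10 q-value times 10 and was not used.

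Summit fragments and local background were solved from fold and p-value with the MACS2 formulas with a difference of at most 0.001 from the authors' −log10 p-value in 100% of rows. Total depth is unknown. High background means over 2 times the lowest of the list. Overlap, distance and interval steps, written in Python 3.11.15 with pandas 2.3.3 and SciPy 1.17.1, were checked on simulated data. Shares carry exact (Clopper-Pearson) 95% intervals, which cover counting only.

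Named regions are, per chromosome, the 5 with the highest −log10 q, the widest, the strongest unshared, the closest pair and the fullest 1 Mb window. The 5 regions of replicate 1 that were missed and the region on raised background were named after their values were seen. Storage protein genes were found by symbol, since the gene table holds no product names. The chromosomes and lists were chosen with earlier results of these data known. Alternatives were a −log10 q of at least 5, no high-background regions, a reciprocal overlap of 50%, summits within 100 bp, lists of equal length, neighbours within 5 kb and replicate 1 in place of replicate 2.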

Additional observations from a re-analysis of the deposited data

How the results depend on the processing

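Of 53 alternative values for 13 results, 45 stayed within the counting interval, the spread between lists or 1.5 times the count, and 8 moved. A change of direction was not assessed. For density, median width and median fold the allowed spread was drawn from the difference between the lists of both replicates. The value of replicate 1 alone therefore counted as moved by construction for these. The same rule on the list of replicate 1 alone (without replicate 2) gave 114 regions, a median width of 299.5 bp, a median fold of 5.97, and a density of 0.826 times that of the other 16 chromosomes, where replicate 2 gave 0.844. The share with a neighbour within 10 kb was 17.5% there against 10.9%. Cutting the list of replicate 2 to the length of that of replicate 1 left 106 regions, of which 74.5% were shared. Neighbours within 5 kb numbered 12 and not 28, by construction, and 100% of them were shared. The share at the high-numbered end ran from 50.3% without chromosome 3 to 56.6% without chromosome 10, and the shared part of close pairs from 77.3% without chromosome 10 to 86.4% without chromosome 20. These 2 results, the share with a close neighbour and their alternatives were chosen after the data were examined. The samples form 1 group, so none could be paired across groups. No summit of replicate 2 with fewer than 16 fragments was called, so weaker binding is beyond these lists.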
